A study of Mus musculus with 8 samples.

Results

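The replication-dependent histone genes are the clustered mouse genes, named Hist1h to Hist4h in the deposited tables, that encode the linker histone H1 and the core histones H2A, H2B, H3 and H4. Every gene whose symbol begins in this way was taken, which gave 68 of the 23469 genes in the tables: 6 H1, 18 H2A, 19 H2B, 12 H3 and 13 H4 genes. The libraries came from germinal center (GC) B cells, the dividing B cells in which antibody genes mutate and are selected. They were sorted as B220+ FAShigh GL7high cells at day 13 after C57BL/6 mice were given NP-KLH, a hapten coupled to a carrier protein. Control (Ctrl) mice were Irf8+/+ and conditional knockout (Irf8 cKO) mice were Irf8flox/flox, and both groups carried 1 allele that makes Cre recombinase in the B lineage. Irf8 encodes a transcription factor of B cells and myeloid cells. The labels number 2 experiments, each with 1 Ctrl and 1 Irf8 cKO library, 4 libraries in all. They do not say how many mice gave a library, whether the experiments used separate mice, or the age of the mice. The series also holds 4 samples of LPS-activated B cells, which were not analysed here.

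Core histones pair up into the spool around which DNA is wound, and H1 binds where the DNA enters and leaves it. Most of their messages are made in S phase, when new DNA must be packed, and they end in a stem-loop in place of a poly(A) tail. The stem-loop is bound by SLBP, the stem-loop binding protein, which carries the message through processing, export and translation. NPAT and HINFP, the latter at H4 promoters, are known to drive transcription of the clusters in S phase. Replacement histones such as H2A.Z and H3.3 come from other genes that are also used outside S phase.

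Depth and labels were checked first. The values are RPKM, reads per kilobase of gene scaled to the library's depth, and the spacing of the low values of short histone entries gave back 63.5 to 76.5 M reads per library. The GC B cell markers were all expressed, with 13 of 13 at 1 RPKM or more in at least 2 libraries and a summed RPKM of 486 in Ctrl 1, 355 in Irf8 cKO 1, 433 in Ctrl 2 and 248 in Irf8 cKO 2. Of the 10 T cell markers listed, 9 were found in the tables and 2 reached that level, and Cd3g and Cd8b1 were at 0 in every library. The 7 of 8 listed myeloid markers found in the tables summed to 65.9, 17.0, 7.74 and 2.35 RPKM in the same order, with S100a8 the highest of them, and their part in any difference below was not tested. The lists of dendritic, erythroid and platelet, NK and stromal markers each summed to at most 4.08 RPKM in a library. Irf8 itself stood at 14.5 and 14.9 RPKM in the Ctrl libraries and at 20.6 and 11.6 RPKM in the libraries labelled Irf8 cKO. It is given as 1 value over the whole gene, so the loss of a floxed exon cannot be read from it, and the genotype is used as labelled. The library labelled Irf8 cKO 2 stood apart: it had 4845 genes at 1 RPKM or more, against 6171 to 6566 in the others, and 16716 RPKM of the ribosomal RNA precursor Rn45s, against 5887 to 9085.

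The histone genes fall into few places. In the deposited mm10 coordinates, 54 of the 68 lie on chromosome 13 between bases 21715763 and 23934851 and carried 92.7% of the summed histone RPKM. Another 10 lie on chromosome 3 between 96219916 and 96270192, with 7.06% of the sum, 3 lie on chromosome 11 and 1 on chromosome 6. Some entries share a place and cannot be read as separate genes: Hist1h2bq and Hist1h2br have the same coordinates and the same values, and Hist1h2ao with Hist1h2ap, Hist2h2aa1 with Hist2h2aa2, and Hist1h1e with Hist1h2be overlap on the same strand. Hist2h2aa2 was listed at 0 in all 4 libraries.

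The promoters show what the members of a type share, and those of the genes described below are given in part. RefSeq promoters (GRCm38.p6, 250 bases before to 50 after the start) were matched for 57 of the 68 genes. The first set is of H1 genes, in the order chr13:21780626-21780755 (minus strand), chr13:23622559-23622688 (minus), chr13:23738677-23738806 (plus) and chr13:23554902-23555031 (plus). Each line holds the 130 bases before the start, 5′ to 3′ on the gene's strand. Capitals mark AAACACA, the heptamer known as the H1 box, CCAAT or its reverse complement ATTGG, and TATAAA.
Hist1h1b: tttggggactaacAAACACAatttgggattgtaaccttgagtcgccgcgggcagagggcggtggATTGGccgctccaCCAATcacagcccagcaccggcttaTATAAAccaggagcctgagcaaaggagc
Hist1h1e: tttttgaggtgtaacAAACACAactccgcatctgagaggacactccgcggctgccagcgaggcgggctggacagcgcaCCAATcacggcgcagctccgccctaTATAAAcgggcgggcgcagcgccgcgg
Hist1h1c: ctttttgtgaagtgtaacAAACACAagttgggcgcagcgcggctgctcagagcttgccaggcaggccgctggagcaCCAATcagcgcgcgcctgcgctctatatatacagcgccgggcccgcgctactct
Hist1h1d: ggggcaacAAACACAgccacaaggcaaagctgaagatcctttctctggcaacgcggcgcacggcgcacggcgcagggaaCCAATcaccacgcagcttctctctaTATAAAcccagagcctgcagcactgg
In these H1 promoters AAACACA begins 112 to 122 bases before the start and CCAAT 51 to 54 bases before it. AAACACA was found, on either strand, in 5 of 6 H1 promoters, the exception being Hist1h1a, and in 4 of the other 51 histone promoters, against 7.18% of all 32851 promoters in the table. CCAAT was in all 6 H1, 15 of 15 H2A, 14 of 14 H2B and 10 of 10 H3 promoters but in 3 of 12 H4 promoters, against 37.4% of all promoters.

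The H4 promoters carried another sequence. The 110 bases before the start are shown for the H4 genes Hist1h4d at chr13:23581458-23581567 (plus), Hist1h4f at chr13:23551669-23551778 (minus), Hist1h4c at chr13:23698459-23698568 (minus). Capitals mark GGTCCG and TATAAA.
Hist1h4d: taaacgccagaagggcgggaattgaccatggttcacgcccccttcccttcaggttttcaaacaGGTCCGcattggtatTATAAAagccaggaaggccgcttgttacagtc
Hist1h4f: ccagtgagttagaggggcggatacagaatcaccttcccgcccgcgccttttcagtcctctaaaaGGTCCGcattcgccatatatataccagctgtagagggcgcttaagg
Hist1h4c: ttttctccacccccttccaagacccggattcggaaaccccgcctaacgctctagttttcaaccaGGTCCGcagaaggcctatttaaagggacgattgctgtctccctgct
GGTCCG begins 46 or 47 bases before the start in these 3 genes. On either strand it was in 11 of 12 H4 promoters, in 2 of the other 45 histone promoters and in 8.25% of all promoters. These letters were chosen after the H4 promoters had been read, so the count describes them and is no test. TATAAA, anywhere in the 300 bases and on either strand, was in 34 of 57 histone promoters against 13.6% of all. Between 40 and 20 bases before the start, on the gene's strand, it was in 12 of 57 against 1.99%.

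The octamer ATTTGCAT, which POU factors such as Oct-1 bind, was in 6 of 14 H2B promoters on the gene's strand and in 7 of 15 H2A promoters on the other strand, and in no H1, H3 or H4 promoter; 1.74% of all promoters hold it on either strand. The windows of neighbouring H2A and H2B genes that point away from each other overlap, so 1 match can count in both. A pair of H2B promoters and that of Hist1h3b, an H3 gene without the octamer, are shown over the 110 bases before the start, at chr13:21721934-21722043 (plus), chr13:23571290-23571399 (plus), chr13:23752235-23752344 (plus). Capitals mark the octamer, CCAAT or ATTGG, and TATAAA.
Hist1h2bm: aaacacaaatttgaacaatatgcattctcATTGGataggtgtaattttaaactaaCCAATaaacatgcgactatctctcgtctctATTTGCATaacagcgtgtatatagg
Hist1h2bg: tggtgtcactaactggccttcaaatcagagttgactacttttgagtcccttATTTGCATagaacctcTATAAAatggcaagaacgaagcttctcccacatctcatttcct
Hist1h3b: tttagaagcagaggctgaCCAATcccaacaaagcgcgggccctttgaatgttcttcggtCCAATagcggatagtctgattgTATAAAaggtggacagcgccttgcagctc
In Hist1h2bm the octamer lies closest to the start and CCAAT before it, and in Hist1h2bg the octamer stands just before TATAAA. These matches describe the letters in the windows and were not related to the levels by any test.

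The 3′ stem-loop, which marks these messages, set H4 genes apart from the other types. In GENCODE vM21 transcripts (GRCm38), the letters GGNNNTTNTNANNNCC on the transcript's strand were found in 46 of 68 histone genes, against 3.65% of all 55341 annotated genes. Of the forms found, those of an H1, an H2A, an H2B and an H3 gene, of Hist1h3g and of 3 H4 genes are shown, read from chr13:23621782-23621797 (minus), chr3:96220418-96220433 (minus), chr13:21722506-21722521 (plus), chr13:23561903-23561918 (minus), chr13:23535889-23535904 (plus), chr13:23581950-23581965 (plus), chr13:21735437-21735452 (plus), chr3:96262939-96262954 (minus). Capitals mark 3 bases on each side of the stem. In H4 the middle base of each run of capitals differs from the other types. In Hist1h4j the base of each run farthest from the loop differs too.
Hist1h1e: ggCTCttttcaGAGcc
Hist2h2ac: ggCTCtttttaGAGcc
Hist1h2bm: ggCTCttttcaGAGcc
Hist1h3e: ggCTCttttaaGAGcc
Hist1h3g: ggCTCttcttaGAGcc
Hist1h4d: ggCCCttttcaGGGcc
Hist1h4j: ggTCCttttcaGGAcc
Hist2h4: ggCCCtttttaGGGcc
The form of Hist1h2bm and Hist1h1e, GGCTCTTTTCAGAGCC, was in 26 histone genes and in no H4 gene. All 12 H4 genes with a match had GGCCC with GGGCC or GGTCC with GGACC in the stem, and no gene of another type did. This bears on the values, since the stem-loop lay inside the counted entry in 23 genes and 2 to 39 bases past its 3′ end in 20, and 31 entries hold the coding sequence alone. In Hist2h2aa1 it straddled the end, and for Hist1h2ao and Hist2h2aa2 the match lay at another place than the entry. The genes with a stem-loop in the entry had a median mean level of 1.50 RPKM, those with it just past the entry 13.5 RPKM, and those without a match 2.92 RPKM. The part of this in the levels was not tested.

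How far near-identical copies can be told apart decides what a value of 1 gene means. The first 90 coding bases of the 4 H4 genes with the highest levels are shown, from GENCODE vM21, at chr13:23581602-23581691 (plus), chr13:23551554-23551643 (minus), chr3:96263215-96263304 (minus), chr13:23698360-23698449 (minus). Capitals mark bases that differ from Hist1h4d.
Hist1h4d: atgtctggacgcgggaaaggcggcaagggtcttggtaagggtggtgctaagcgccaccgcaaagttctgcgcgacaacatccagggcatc
Hist1h4f: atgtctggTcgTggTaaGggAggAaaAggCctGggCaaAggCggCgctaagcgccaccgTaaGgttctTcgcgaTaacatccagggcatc
Hist2h4: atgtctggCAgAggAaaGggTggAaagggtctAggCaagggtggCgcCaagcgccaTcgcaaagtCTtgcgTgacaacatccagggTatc
Hist1h4c: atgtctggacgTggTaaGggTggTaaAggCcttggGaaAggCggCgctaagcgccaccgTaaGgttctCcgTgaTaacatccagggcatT
Over the 312 coding bases Hist1h4f and Hist1h4c each differ from Hist1h4d at 23 positions and Hist2h4 at 32. Of the 50-base stretches of the coding sequence, 57.8% in Hist1h4d, 49.4% in Hist1h4f, 93.9% in Hist2h4, 17.2% in Hist1h2bl and 5.25% in Hist1h3b occur in no transcript of a gene at another place. Hist1h4m and Hist1h4n have identical coding sequences. Of 63 genes with a coding sequence, 25 had under 20% of such stretches, 23 had 20 to 60% and 15 had 60% or more. Their median levels were 2.94, 7.11 and 2.33 RPKM. How reads that fit several copies were assigned is not stated in the tables or labels, so values of single H2A, H2B, H3 and H4 genes are uncertain in this respect. The sums by type are sums of RPKM, in which reads are divided by entry length. Entries of 1 type differ in length, with 381 bases for Hist1h2bl and 615 for Hist1h2bg, both H2B genes. The split of reads within a type can therefore change its sum. Reads left out, or given to genes outside the list, would change the sums as well, and neither was tested. Of the H1 genes, Hist1h1a, Hist1h1b and Hist1h1t share no such stretch with another gene.

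A few genes carried most of the signal. Hist1h4d, which encodes H4, was highest in every library, with 308 RPKM in Ctrl 1, 186 in Irf8 cKO 1, 119 in Ctrl 2 and 85.8 in Irf8 cKO 2. It made up 59.7% of the summed H4 level and 21.2% of the summed histone level. These values rest on 7080, 4432, 2359 and 1718 reads, and the 95% Poisson interval of the smallest runs from 81.8 to 90.0 RPKM. The libraries were amplified, so reads are not independent molecules and such intervals cover counting error alone.

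**Figure D1:**
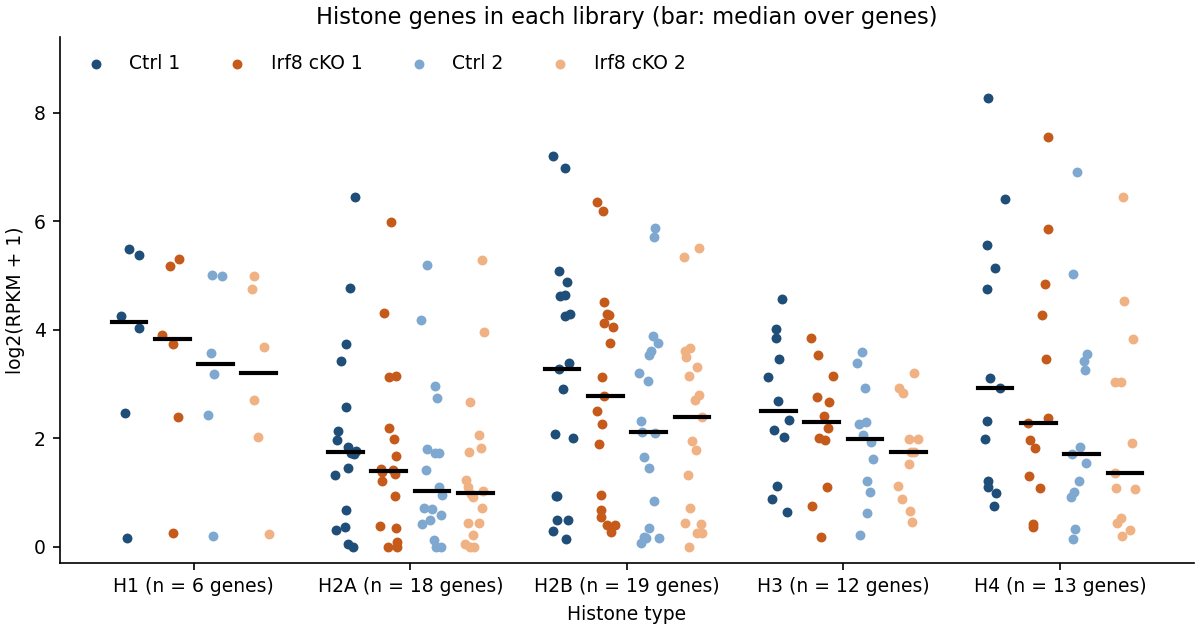
Level of each of the 68 histone genes in each library, as log2(RPKM + 1), by histone type; 1 point is 1 gene and the bar is the median over genes. Within each type the highest points belong to experiment 1, and single genes stand far above their type's median, above all Hist1h4d at 308 RPKM in Ctrl 1.

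The linker histones were led by Hist1h1b and Hist1h1e. Hist1h1b stood at 44.0 and 38.6 RPKM in experiment 1 (Ctrl, then the library labelled Irf8 cKO) and at 31.2 and 26.0 in experiment 2. Hist1h1e, in the same order, stood at 40.5, 35.0, 30.9 and 30.7 RPKM. Hist1h1c had 18.1, 12.4, 10.8 and 11.8 RPKM, Hist1h1a 15.4, 13.9, 8.08 and 5.55, and Hist1h1d 4.53, 4.23, 4.38 and 3.04. In all of these but Hist1h1d both libraries of experiment 1 lie above both of experiment 2.

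Among H2A genes Hist1h2ak stood at 85.6 and 62.1 RPKM in experiment 1 and at 35.4 and 37.9 in experiment 2, and gave 52.1% of the H2A sum. Hist2h2ac followed with 26.4, 18.7, 17.0 and 14.5 RPKM, then Hist1h2ai with 12.3, 7.82, 6.78 and 3.17. The other H2A genes had mean levels of 7.11 RPKM or less. The H2B genes were led by Hist1h2bl (147, 80.5, 58.0 and 44.1 RPKM) and Hist1h2bm (126, 72.3, 51.4 and 39.7). Hist1h2bb had 32.7, 21.8, 11.2 and 8.92 RPKM, Hist1h2bh 28.5, 18.3, 12.5 and 11.2, and Hist1h2bf 23.9, 16.5, 13.8 and 11.6. In each of these 5 H2B genes the libraries fall in the same order, with Ctrl 1 highest and the library labelled Irf8 cKO 2 lowest.

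The H3 genes were lower and more even. Hist1h3e had 22.6, 13.4, 11.1 and 8.19 RPKM, Hist1h3g 15.2, 10.5, 6.60 and 6.14, and Hist1h3b 13.4, 7.80, 9.43 and 6.63. Hist1h3b differs from the others in that both Ctrl libraries lie above both libraries labelled Irf8 cKO. After Hist1h4d the H4 genes were Hist1h4f (83.7, 56.5, 31.5 and 21.9 RPKM), Hist2h4 (46.2, 27.5, 10.7 and 13.2), Hist1h4c (34.4, 18.3, 8.54 and 7.24) and Hist1h4j (26.0, 9.98, 9.70 and 7.14). In Hist1h4j the Ctrl 1 library alone is high. Testis histones give the level of genes that B cells should not use. Hist1h1t ranged from 0.119 to 0.186 RPKM and Hist1h2ba from 0 to 0.204, while Hist1h2aa had 1 read in Ctrl 1 and none elsewhere. A value of 0 for Hist1h2ba in Irf8 cKO 2 allows up to 0.122 RPKM (3 reads).

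Genes that share a promoter region did not always have like values. The tables hold 11 pairs of an H2A and an H2B gene transcribed away from each other, 172 to 334 bases apart. The H2B gene was the higher in 8 pairs and the H2A gene in 3, and in 9 pairs the same gene was higher in all 4 libraries. Hist1h2bk exceeded Hist1h2ah 57.7-fold by mean RPKM and Hist1h2bl exceeded Hist1h2ai 11.0-fold, whereas Hist1h2ak exceeded Hist1h2bn 4.58-fold and Hist2h2ac exceeded Hist2h2be 23.3-fold. Of the 50-base coding stretches, 4.82% in Hist1h2bk, 4.44% in Hist1h2ah, 17.2% in Hist1h2bl and 9.88% in Hist1h2ai occur at no other place. Hist1h2ah rests on 8, 8, 2 and 4 reads. The entry of Hist2h2ac has 390 bases and that of Hist2h2be 2618. The part of read assignment and entry length in these folds was not tested. At the other end, Hist1h2an and Hist1h2bp differed 1.07-fold, and which was higher changed between libraries. These pairs, like the entry lengths and copies above, were compared as a description with no test.

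**Figure D2:**
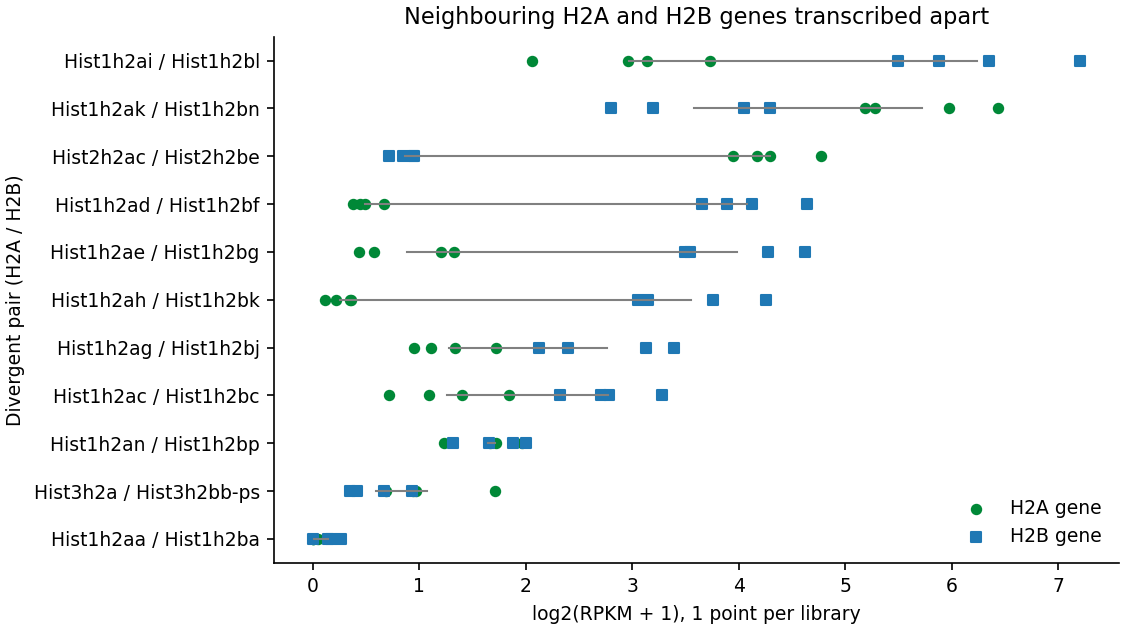
Levels of the 11 divergent H2A and H2B pairs, as log2(RPKM + 1), with 1 point per library, circles for H2A and squares for H2B, and a line joining the means. The pairs are ordered by their summed level; in 9 of them the same gene lies to the right in every library.

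The first comparison is of the libraries labelled Irf8 cKO with Ctrl. Summed over all 68 genes, the histone level was 1345 RPKM in Ctrl 1 and 875 in Irf8 cKO 1, and 589 in Ctrl 2 and 487 in Irf8 cKO 2. The library labelled Irf8 cKO thus had 65.1% of its Ctrl in experiment 1 and 82.8% in experiment 2. H4 had 60.1% and 75.3%, H2B 62.7% and 83.6%, H3 67.1% and 79.6%, H2A 71.8% and 92.9%, and H1 85.0% and 90.3%. The core histones stood further below Ctrl than H1 did in experiment 1, and every type was nearer to Ctrl in experiment 2. Ctrl 2, however, lay below Irf8 cKO 1 in all 5 types, so the groups overlap in each.

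**Figure D3:**
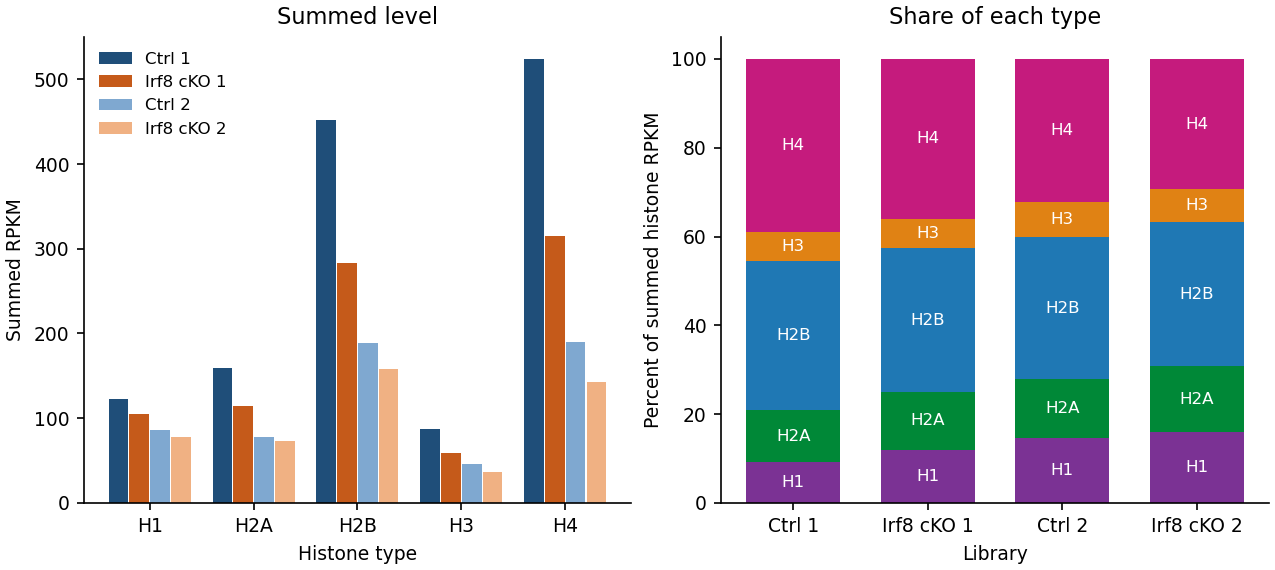
Left, summed RPKM of each histone type in each library, with bars from 0; right, the share of each type in the summed histone RPKM of a library. Sums fall from Ctrl 1 through Irf8 cKO 1 and Ctrl 2 to Irf8 cKO 2 in all 5 types, and H4 takes 39.0% of the sum in Ctrl 1 and 29.3% in Irf8 cKO 2.

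No histone gene passed the test between genotypes. The fit covered the 6446 genes with 1 RPKM or more in at least 2 libraries, among them 51 of the 68 histone genes (5 H1, 12 H2A, 13 H2B, 10 H3 and 11 H4), the other 17 being too low. In limma on log2(RPKM + 1) with the experiment as a block, 0 of the 51 were called lower at an adjusted p under 0.05, against 1.09% of all genes tested, and 0 were called higher, against 0.0931%. The smallest adjusted p was 0.141, for Hist2h2ab (4.95 and 1.70 RPKM in experiment 1, 1.64 and 1.03 in experiment 2). At an unadjusted p under 0.05, 5 were lower, against 18.6% of all genes: Hist2h2ab, Hist1h2ai, Hist1h4j, Hist1h4d and Hist1h4k. None was higher at that level, against 0.264% of all genes. For Hist1h4d the fitted log2 ratio was -0.60 (SE 0.30), with an adjusted p of 0.262 in limma; for Hist1h3b it was -0.58 (SE 0.34), with an adjusted p of 0.302. With no block 0 of the 51 were called lower, against 0.295% of all genes, and 0 higher, against 0.031%. Without the library labelled Irf8 cKO 1, with no block, 6 were called lower, against 22.5%, and 0 higher, against 0.14%; leaving out any other library called none. With no trend in limma's variance 1 of the 51, Hist1h4j, was called lower (adjusted p = 0.0333), against 4.3% of all genes, and 0 higher, against 0.0931%.

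The median ratio of the 51 tested genes was -0.28, beside -0.35 for all genes tested, so that the histone genes lay lower by about as much as the typical gene. By type the medians were -0.41 for H4, -0.29 for H3, -0.23 for H2B, -0.22 for H1 and -0.18 for H2A. Scaling the libraries by the median of ratios moved the median of all genes from -0.35 to 0.0035, and that of the histone genes to 0.12, a change of direction. As deposited, 45 of the 51 lay below 0, against 92.4% of all genes; after scaling 17 did, against 49.3%. All 5 H1 genes (median 0.29) were then above 0, and 8 of 11 H4 genes (median -0.062) below it. None of the 51 was called lower, against 0.0465% of all genes, or higher, against 0.0155%. At an unadjusted p under 0.05, 0 were then lower (4.58% of all genes) and 3 higher (5.94%): Hist2h2bb, Hist2h2aa1 and Hist1h2ap, with deposited log2 ratios of 0.13, 0.078 and 0.072. Hist2h2bb stood at 3.23 and 4.67 RPKM in experiment 1 and 3.29 and 2.84 in experiment 2.

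In only 3 of the 51 genes did both Ctrl libraries lie above both libraries labelled Irf8 cKO, against 44.7% of all genes tested. They were Hist1h3b, Hist1h1d and Hist1h2an, the last named after its values were seen.

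The 2 experiments gave different pictures of the genotype for these genes. Relative to the typical gene, most histone genes were lower in the library labelled Irf8 cKO in experiment 1 and higher in experiment 2. After scaling, the median log2 ratio of the 51 genes was -0.21 in experiment 1 and 0.41 in experiment 2, while that of all genes was 0.0068 and 0.012. The values of Irf8 cKO 2, the library that stood apart above, were divided by 0.658. The factors were 1.28 for Ctrl 1, 1.07 for Irf8 cKO 1 and 1.14 for Ctrl 2, so the ratio above 0 in experiment 2 rests on the scaling of 1 library. As deposited, the medians were -0.44 and -0.25 for the histone genes and -0.18 and -0.51 for all genes. Below 0 in experiment 1 and above 0 in experiment 2 were 32 of the 51 after scaling, or 62.7%, against 21.6% of all genes tested. They made up 11 of 13 H2B, 8 of 11 H4, 6 of 10 H3, 6 of 12 H2A and 1 of 5 H1 genes. As deposited the count was 12 of 51, against 3.24%. Below 0 in both experiments were 35 of the 51 as deposited, against 71.2% of all genes, and 2 of 51 after scaling, against 27.3%. With 1 library per genotype and experiment, no replicate is left to test the difference between the experiments.

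**Figure D4:**
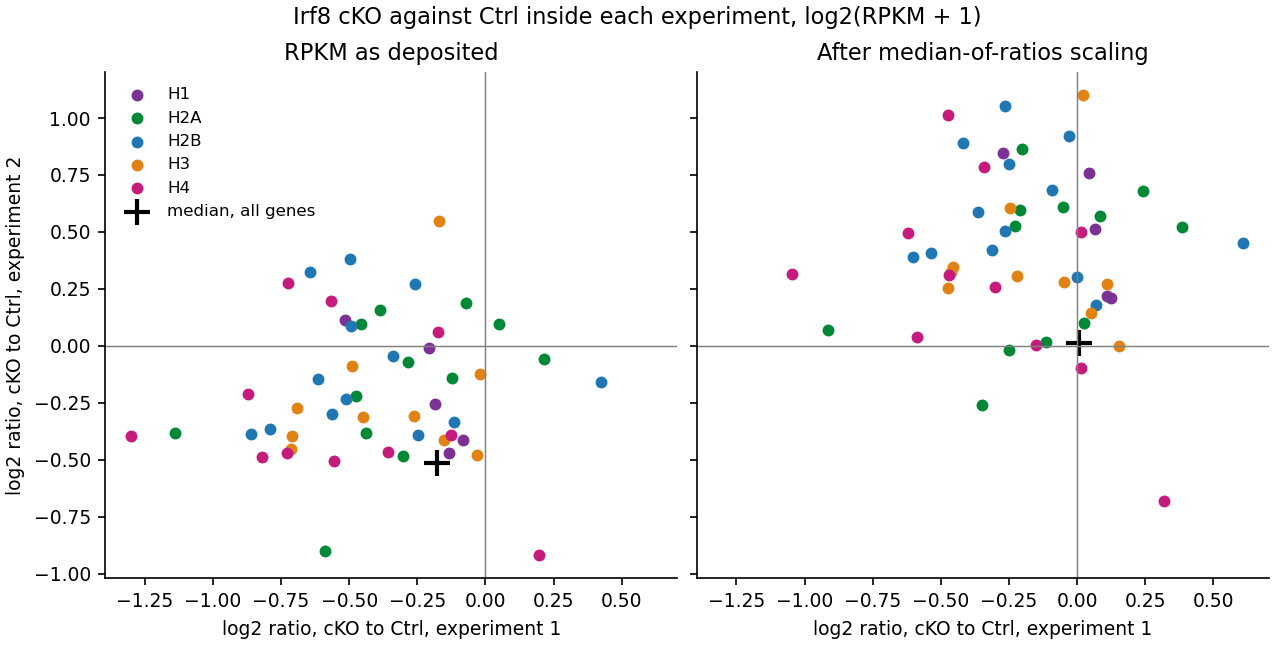
Log2 ratio of the library labelled Irf8 cKO to Ctrl in experiment 1 (x axis) and experiment 2 (y axis) for the 51 tested histone genes, coloured by type, from log2(RPKM + 1) as deposited (left) and after median-of-ratios scaling (right); the cross is the median of all 6446 genes. After scaling, 32 of the 51 points lie to the upper left of 0.

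Hist1h4d shows the pattern in 1 gene: its scaled log2 ratio was -0.47 in experiment 1 and 0.31 in experiment 2. Hist2h4 had -0.47 and 1.01, Hist1h4c -0.62 and 0.50, and Hist1h4f -0.30 and 0.26. Hist1h4h went the other way in both experiments, with scaled log2 ratios of 0.32 in experiment 1 and -0.68 in experiment 2. It had 1.14 and 1.45 RPKM in experiment 1 and 1.32 and 0.228 in experiment 2. It was named after its values were seen, and its lowest value rests on 7 reads (95% Poisson interval 0.0917 to 0.470 RPKM). In the authors' deposited table, which gives its own p-value per gene and experiment, 3 of the 68 histone genes were lower at p under 0.05 in experiment 1 (Hist1h4j, Hist3h2a and Hist1h2bl), against 1.32% of all entries, and 0 higher, against 1.29%. In experiment 2 the authors' deposited table had 0 lower, against 0.861%, and 5 higher (Hist1h2be, Hist1h1c, Hist1h1e, Hist1h2ak and Hist1h2bc), against 1.41%. These shares are over all 23471 entries, whereas the fit above kept 6446 genes, 51 of them histone genes. They are therefore not shares among expressed genes. Hist1h1e and Hist1h2be overlap by 497 bases on the same strand, so their calls are not separate. Each of the authors' p-values compared 1 library with 1 library. The authors' deposited log2 ratios mostly exceeded those of the RPKM, by about 0.205 in experiment 1 and 0.721 in experiment 2. Hist1h1e was called higher with 30.9 RPKM in Ctrl 2 and 30.7 in Irf8 cKO 2. The other genes called higher in experiment 2 were also higher there by RPKM. These calls come from the same libraries as the scaled ratios, so they are no separate evidence.

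The larger difference was between the experiments. In Ctrl libraries the summed histone level was 2.29-fold higher in experiment 1 than in experiment 2 and 1.80-fold higher among those labelled Irf8 cKO. The fold in Ctrl rose from 1.44 for H1 through 1.91 for H3, 2.03 for H2A and 2.39 for H2B to 2.76 for H4. In the libraries labelled Irf8 cKO it was 1.35 for H1, 1.57 for H2A, 1.61 for H3, 1.79 for H2B and 2.20 for H4. The make-up of the sum moved with it: H4 took 39.0, 36.0, 32.3 and 29.3% of the histone level in Ctrl 1, Irf8 cKO 1, Ctrl 2 and Irf8 cKO 2, and H1 took 9.12, 11.9, 14.5 and 15.8%. H2B kept between 32.1 and 33.6%.

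In the same limma fit, 6 of the 51 histone genes were lower in experiment 2 at an adjusted p under 0.05, against 0.543% of all genes tested, and 0 were higher, against 0.0465%. This comparison was added after the values had been seen. The 6 were 5 H4 genes and 1 H2B gene. Hist1h4c differed by -1.56 on the log2 scale (SE 0.35, adjusted p = 0.00483), Hist2h4 by -1.51 (SE 0.35, adjusted p = 0.00863) and Hist1h4d by -1.24 (SE 0.30, adjusted p = 0.0140). Hist1h4f (-1.35), Hist1h2bb (-1.33) and Hist1h4k (-1.10) had adjusted p-values of 0.0227, 0.03 and 0.0423 in limma. All 51 genes had a negative difference, with a median of -0.76, beside -0.28 for all genes tested. At an unadjusted p under 0.05, 35 of the 51 were lower, against 17.1% of all genes, and 0 higher, against 0.326%. Both libraries of experiment 1 lay above both of experiment 2 in 45 of the 51, against 33% of all genes.

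The 6 calls did not hold once the libraries were scaled, but the fit changed in another way too. Its prior degrees of freedom went from infinite to 6.44, so an equal ratio of difference to SE gave a larger p. Hist1h2bb had -1.33 (SE 0.35) as deposited and -0.92 (SE 0.22) after scaling, a difference no smaller beside its SE. Hist1h4d had -1.24 (SE 0.30) and -0.81 (SE 0.34), a smaller one. After median-of-ratios scaling 0 of the 51 were called, against 0.031% of all genes lower, the smallest adjusted p being 0.200, though the median stayed at -0.48 beside 0.0063 for all genes. At an unadjusted p under 0.05, 17 were lower then (7 of 11 H4 genes, 4 of 13 H2B, 3 of 12 H2A, 2 of 10 H3 and 1 of 5 H1), against 7.6% of all genes, and 0 higher, against 8.59%. Both libraries of experiment 1 remained above both of experiment 2 in 30 of 51, against 22.7% of all genes. With RPKM as deposited and no term for the genotype the count was also 0. In that form it was 20 without Ctrl 2, against 27.9% of all genes lower, with 0 higher, against 0.171%, and 0 without any of the other 3 libraries.

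The difference between the experiments was larger in Ctrl. After scaling, the median difference of experiment 2 from experiment 1 was -0.67 in Ctrl, against -0.10 among those labelled Irf8 cKO. As deposited it was -0.83 and -0.65, beside -0.11 and -0.45 for all genes tested. The value of -0.10 thus rests on the scaling, in which Irf8 cKO 2 was divided by 0.658. Gene by gene, this contrast is the same as that between the genotype ratios of the 2 experiments above. In Ctrl the scaled median was -1.09 for H4, -0.95 for H2B, -0.60 for H2A, -0.57 for H3 and -0.32 for H1. In the libraries labelled Irf8 cKO it was -0.41 for H4, -0.11 for H3, -0.10 for H2B, -0.00052 for H2A and 0.18 for H1. H4 lay lowest in both.

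**Figure D5:**
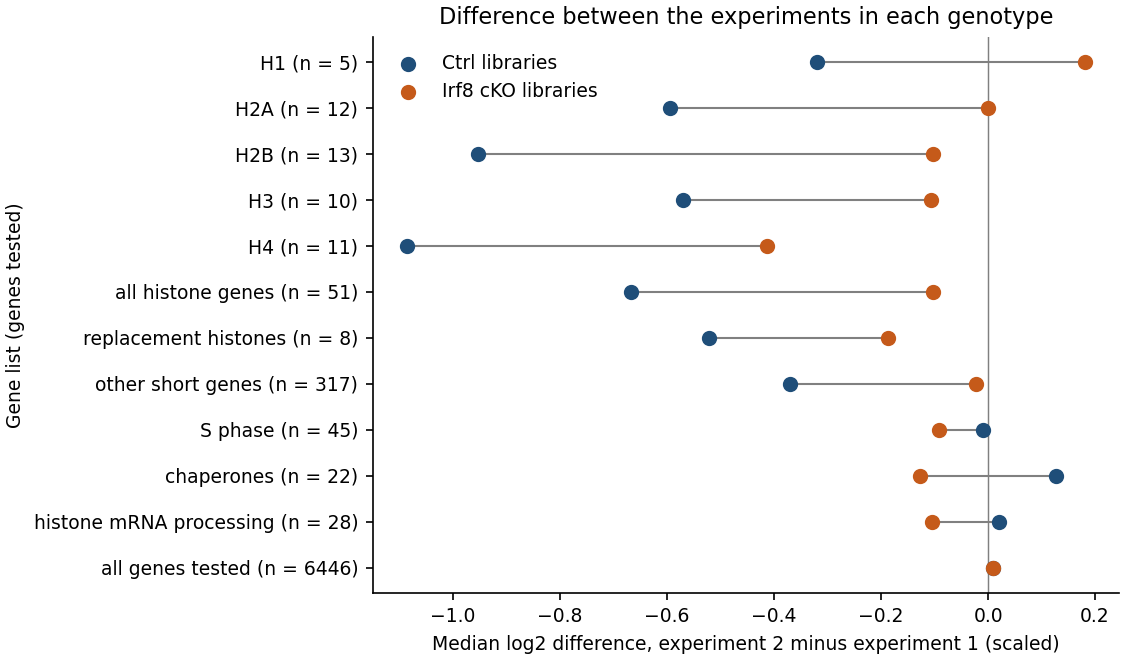
Median log2 difference of experiment 2 from experiment 1, after median-of-ratios scaling, for the Ctrl pair and the pair labelled Irf8 cKO, for the tested genes of each histone type and of the other lists. In Ctrl the medians of H4 (-1.09) and H2B (-0.95) lie furthest from that of all genes, and those of S phase genes (-0.0092) and chaperones (0.13) lie near or above it. In the pair labelled Irf8 cKO all histone genes (-0.102), S phase genes (-0.092) and chaperones (-0.128) lie close together, with H4 at -0.41. Values of that pair rest on dividing Irf8 cKO 2 by 0.658, and as deposited the median of all histone genes was -0.65 there.

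By the median scaled difference between experiments in Ctrl, 3 of the lists of genes that work with histones lay near the typical gene and the replacement histones lay lower. In the pair labelled Irf8 cKO these lists and the histone genes were not set apart. There the median was -0.102 for all tested histone genes, -0.092 for S phase, -0.105 for processing and -0.128 for chaperone genes, though H4 lay at -0.41. Of all genes, 1.09% were called lower and 0.0931% higher between genotypes, and 0.543% and 0.0465% between experiments, so 0 calls in lists of this size is near the background. Of 46 genes of S phase and DNA replication 45 were tested, and 0 were called in either direction between genotypes or between experiments. Their median scaled difference between the experiments was -0.0092 in Ctrl, against -0.092 among those labelled Irf8 cKO. Pcna, the sliding clamp of replication, had 45.7 and 28.9 RPKM in experiment 1 and 26.0 and 14.2 in experiment 2. Mcm6, part of the replicative helicase, had 17.4, 14.8, 13.7 and 5.37, and Rrm2, which makes deoxynucleotides, 19.2, 13.9, 10.8 and 5.32. These 3 are lowest in Irf8 cKO 2. As deposited, both libraries of experiment 1 lay above both of experiment 2 in 26 of the 45 S phase genes (57.8%), against 33% of all genes and 45 of 51 histone genes. Over both genotypes their median scaled difference was -0.11, with 31 of the 45 below 0. Of 23 histone chaperones 22 were tested and 0 were called. Their medians were 0.13 in Ctrl, against -0.13 among those labelled Irf8 cKO, and both libraries of experiment 1 lay above both of experiment 2 in 8 of 22 (36.4%). The most abundant chaperones were Npm1 (139, 144, 112 and 57.4 RPKM), Nap1l1 (58.2, 38.9, 40.4 and 19.8) and Anp32e (26.3, 20.8, 20.1 and 8.19).

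The list of histone mRNA processing and transcription held 32 genes, of which 28 were tested and 0 called. Its median scaled difference between the experiments was 0.021 in Ctrl, against -0.105 among those labelled Irf8 cKO. Slbp, the binder of the stem-loop, had 16.2 and 12.8 RPKM in experiment 1 and 7.79 and 4.60 in experiment 2, so both libraries of experiment 1 were higher. Its difference between the experiments was -1.13 on the log2 scale (SE 0.34, adjusted p = 0.085 in limma), which did not pass the test. Pou2af1, the B cell coactivator of octamer-binding factors, had 241, 181, 197 and 98.0 RPKM, and Snrpg, a spliceosomal Sm protein shared with the histone-processing U7 particle, 23.0, 18.5, 18.9 and 10.7. Of 13 replacement and variant histone genes 8 were tested and 0 called, with medians of -0.52 in Ctrl, against -0.19 among those labelled Irf8 cKO. H2afz had 137, 74.6, 64.3 and 39.4 RPKM, H2afx 58.8, 41.0, 34.2 and 22.6, and H3f3a 45.7, 21.2, 24.5 and 20.2. H2afz and H2afx follow the same order of libraries as the 5 highest H2B genes. Both libraries of experiment 1 lay above both of experiment 2 in 8 of the 28 processing genes (28.6%) and 5 of the 8 replacement histones (62.5%), against 33% of all genes.

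Short genes of other kinds also lay lower in experiment 2. Among the tested genes outside the histone list, 317 had a longest matched GENCODE transcript of 800 bases or less. By their longest transcript some histone genes exceed this limit, with 1138 bases for Hist1h4d and 1630 for Hist2h4. Others do not, with 381 for Hist1h2bl and 524 for Hist1h2bm, so the 2 lists are not matched in length. Their median scaled difference between the experiments was -0.37 in Ctrl, against -0.023 among those labelled Irf8 cKO, and 45.4% of them were below 0 in experiment 1 and above 0 in experiment 2 between genotypes. The histone genes had -0.67, -0.10 and 62.7%. As deposited, 14 of the 317 short genes were called lower in experiment 2 and 2 higher, against 0.543% and 0.0465% of all genes. Of the 51 histone genes 6 were lower and 0 higher. Both libraries of experiment 1 lay above both of experiment 2 in 43.8% of the short genes, 88.2% of the histone genes and 33% of all genes. Between genotypes the short genes had a scaled median log2 ratio of -0.29 in experiment 1 and 0.081 in experiment 2, beside -0.21 and 0.41 for the histone genes. Over both experiments it was -0.11 for the short genes and 0.12 for the histone genes, on opposite sides of 0. The length limit was set after the histone values had been seen, and the part of transcript length in the histone differences was not tested further. In bulk libraries, fewer cells in S phase and less histone message per cell cannot be told apart.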

How the data were processed

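The RNA of GC B cells went through the Ovation RNA-Seq System v2 amplification, was made into Nextera XT libraries and analysed in Wardrobe, per the labels' protocols and the series' design text. TopHat2 2.0, Cufflinks 2.2, Cuffdiff, DESeq, mm9 and mm10 are named in the submitters' processing notes without roles; the aligner of these libraries is not stated there. The authors deposited 1 table per experiment with RPKM per gene and library, a log2 ratio and a p-value, per the file headers. Of the entries with 1 RPKM or more in both libraries (5890 and 4739), 97.1% and 96.3% had an authors' deposited log2 ratio within 0.05 of that of the RPKM plus a constant (0.205 and 0.721).

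Symbols listed more than once (2 of them) were summed. Reads per library were recovered from RPKM spacing in histone entries of up to 700 bases, where 92.2% of 192 values above 0 were whole within 0.02 reads. RPKM stayed the unit tested. Tests used limma 3.58.1 (R 4.3.3, lmFit and eBayes with a trend, 2-sided) on log2(RPKM + 1), with Benjamini-Hochberg adjustment over 6446 genes; fold changes on this scale understate those of low genes. As deposited, the prior degrees of freedom were infinite, so each SE came from the trend over all genes. After median-of-ratios scaling the prior degrees of freedom were 6.44, so p-values with and without scaling differ in this respect too. The experiment number paired the libraries: deviations of same-numbered libraries correlated at 0.377. The fit was run before use on simulated data with known changes. These were larger than any fitted histone ratio, and the simulated libraries did not differ in scale. The power of the fit for changes of the size seen here was therefore not tested. Alternatives were other scalings, pseudocounts, filters, no block, no variance trend and leaving out each library.

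Genes were named by rule: Hist1h4d, Hist1h3b, called members, the 5 highest and the 2 extreme ratios per type, 3 testis genes, and the 3 highest genes of each context list. Genes outside the rule, such as those named for a count, a pair or the authors' p-values, were chosen after their values were seen. Members, lists and rules were chosen with earlier results of these data known. The labels do not show replicates to be separate animals, so p-values measure the spread between these libraries, which may be technical.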

Additional observations from a re-analysis of the deposited data

How the results depend on the processing

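Over all genes tested, 70 were lower and 6 higher in the libraries labelled Irf8 cKO. Median-of-ratios and upper-quartile scaling each gave 3 lower and 1 higher, no filter on low values 0 and 0, and eBayes with no trend 277 lower. The libraries paired by experiment number (correlation 0.377). With no replicate block the counts were 19 and 2, and 4 and 2 with median-of-ratios scaling; no histone gene was called with or without the block. Of the histone genes, 1 (Hist1h4j) was called lower with no variance trend, and leaving out 1 library gave 0 to 6 called lower, the 6 being without Irf8 cKO 1, where 22.5% of all genes were. Leaving out 1 library gave 0 to 1450 genes lower and 0 to 9 higher.

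The median log2 ratio of the histone genes, -0.28, became 0.12 with median-of-ratios scaling, with or without the block, and 0.12 with upper-quartile scaling. It ranged from -0.73 without Ctrl 2 to 0.472 without Ctrl 1 after scaling; as deposited it was 0.084 without Ctrl 1, -0.61 without Irf8 cKO 1 and 0.05 without Irf8 cKO 2. The log2 ratio of summed RPKM became 0.33 and 0.32 for H1, 0.23 and 0.22 for H2A, 0.057 and 0.043 for H2B, 0.071 and 0.056 for H3, and -0.049 and -0.064 for H4 under the 2 scalings. The 6 histone genes lower in experiment 2 became 0 after scaling and 0 with no term for the genotype, and 0 to 20 when 1 library was left out.

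The log2 ratio turned its sign in 15 of the 30 named genes under median-of-ratios scaling, with the same values without the block: Hist1h1b 0.29, Hist1h1e 0.40, Hist1h1c 0.29, Hist1h1a 0.16, Hist1h1d 0.17, Hist1h2ak 0.33, Hist2h2ac 0.15, Hist1h2ab 0.28, Hist1h2bb 0.055, Hist1h2bh 0.11, Hist1h2bf 0.12, Hist1h3g 0.18, Hist1h3i 0.043, Hist2h4 0.27, Hist1h4a 0.26. Under upper-quartile scaling the values were Hist1h1b 0.27, Hist1h1e 0.39, Hist1h1c 0.27, Hist1h1a 0.15, Hist1h1d 0.16, Hist1h2ak 0.32, Hist2h2ac 0.14, Hist1h2ab 0.27, Hist1h2bb 0.043, Hist1h2bh 0.10, Hist1h2bf 0.11, Hist1h3g 0.17, Hist1h3i 0.032, Hist2h4 0.26, Hist1h4a 0.25. None of these was called. Leaving out 1 library, with or without scaling, gave these ranges, which cross 0: Hist1h4d -1.28 to 0.52, Hist1h3b -0.82 to 0.099, Hist1h1b -0.50 to 0.45, Hist1h1e -0.30 to 0.65, Hist1h1c -0.55 to 0.58, Hist1h1a -0.90 to 0.51, Hist1h1d -0.43 to 0.26, Hist1h2ak -0.81 to 0.87, Hist2h2ac -0.65 to 0.37, Hist1h2ab -0.52 to 0.54, Hist1h2ap -0.13 to 0.59, Hist2h2aa1 -0.040 to 0.59, Hist2h2ab -1.34 to 0.076, Hist1h2bl -1.29 to 0.47, Hist1h2bm -1.22 to 0.49, Hist1h2bb -1.16 to 0.70, Hist1h2bh -0.94 to 0.59, Hist1h2bf -0.75 to 0.41, Hist2h2bb -0.15 to 0.60, Hist1h3e -1.03 to 0.33, Hist1h3g -0.83 to 0.64, Hist1h3c -1.08 to 0.46, Hist1h3i -0.80 to 0.38, Hist1h3a -0.28 to 0.95, Hist1h4f -1.22 to 0.58, Hist2h4 -1.23 to 1.19, Hist1h4c -1.49 to 0.79, Hist1h4j -1.51 to 0.22, Hist1h4a -0.54 to 0.66. Other pseudocounts and filters and the fit without the block turned no sign. The cause of these changes was not tested. With 2 libraries per group, a gene's own spread rests on few degrees of freedom. The p-values of the fit as deposited do not reflect this, since its SE came from the trend over all genes. The reads behind a value near 1 RPKM depend on the entry's length: 20 for Hist1h4a (1.01 RPKM) and 179 for Hist1h2ac (1.13 RPKM), both in Ctrl 2.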
